A study of Mus musculus with 6 samples.

Results

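The enzymes that make drugs, dietary chemicals and other foreign compounds soluble enough to excrete were examined in mouse small-intestinal organoids with and without induction of active YAP. A gene was taken as a member when its mouse symbol named a cytochrome P450 of families 1 to 4 (Cyp1 to Cyp4), a UDP-glucuronosyltransferase (Ugt1 or Ugt2), a cytosolic sulfotransferase (Sult1 to Sult6) or a carboxylesterase (Ces1 to Ces5). This rule took 133 of the 24594 rows of the count table. They comprised 75 Cyp, 18 Ugt, 21 Sult and 19 Ces genes. Values are reported for the 64 members with 10 or more counts in at least 3 libraries, of which 33 were Cyp, 14 Ugt, 6 Sult and 11 Ces, and 62 of the 64 passed the expression filter of the test. Of the 69 others, 37 had no count in any library and 32 never exceeded 30 counts in a library. Of the 64, 54 had 10 or more counts in all 6 libraries.

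Organoids are epithelial structures grown from intestinal crypts in a gel, and these came from adult proximal small intestine. All 6 libraries came from the TetON-hYAP/H2B-mCherry strain, in which doxycycline switches on a human YAP transgene with the activating S127A mutation together with a red fluorescent histone. YAP is the transcriptional coactivator that the Hippo pathway holds in check. The 3 doxycycline libraries came from organoids given 1 µg/ml for 48 h from passaging, the 3 control libraries from organoids of the same genotype without the drug. The comparison addresses what induction of the transgene changes. Doxycycline was not given to organoids lacking the transgene, so drug and transgene cannot be told apart, and the human transgene was not analysed here, so the induction itself was not checked. All were grown with EGF, Noggin and R-spondin1. The sources used here name no promoter for the doxycycline-responsive activator. The series' growth protocol takes adult crypts from 1 animal per sample without saying whether these 6 samples came from different animals, so the p-values measure only the spread between these libraries, which may be partly technical.

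Foreign compounds are commonly handled in steps. Phase I enzymes, chiefly the P450s and the carboxylesterases, oxidise or hydrolyse a compound and so expose a chemical handle. Phase II enzymes attach a polar group to that handle, glucuronic acid in the case of the UGTs and sulfate in the case of the SULTs, and membrane transporters then export the product. The absorptive enterocyte is the main site of this system in the intestine, and its genes respond to ligand-activated sensors such as the aryl hydrocarbon receptor (Ahr), the pregnane X receptor (Nr1i2) and the constitutive androstane receptor (Nr1i3).

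Depth was 8533452 to 16803062 counts per library. Control replicate 3 stood apart. Its log2 levels correlated at 0.916 and 0.919 with the other control libraries, which correlated at 0.991 with each other. For many of the results, though not all, a value without it is also given. The 18 enterocyte markers summed to 6006 to 6269 CPM (the usual depth-scaled read count, on TMM-scaled library sizes) in the control libraries and 31410 to 37660 CPM with doxycycline, and 14 of them rose. Crypt stem markers went from 4546 to 6610 down to 168.5 to 188.8 CPM, and all 6 fell. Hepatocyte markers summed to at most 6.74 CPM in any library, with Serpina1a, Cyp7a1 and Fgb at 0, and mesenchymal markers to at most 6.26 CPM, with Col1a1, Dcn and Lum at 0. In such bulk libraries, fewer cells of a type and less RNA per cell cannot be told apart, and the part of these marker shifts in the enzyme results below was not tested.

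Sequences are shown first for 2 places where relatives could be compared, the promoters of the Ces2 cluster, whose genes gave different values, and the exon joins of the Ugt1a locus, which decide what its counts can tell. RefSeq promoter windows (GRCm38.p6, 250 bases before to 50 after a gene's start) were found for 111 of the 133 members, in 122 windows, and were searched on both strands. The core letters CAAAGT, a motif of the HNF4 nuclear receptors, were in 39 of the 122 member windows (32.0%) and in 14.4% of all 32851 windows. Of the other letters searched, the zinc finger GATA-family core AGATAA was in 24.6% of member windows and 11.2% of all, the nuclear receptor half-site AGTTCA in 20.5% and 14.0%, and the AP-1 core TGANTCA in 13.1% and 7.8%. The CDX core TTTATG was in 13.1% and 11.9%, and GGAATG, the core of the TEAD factors through which YAP acts, in 14.8% and 14.7%. Close relatives share promoter sequence, so these windows are not independent of each other. In 4 genes of the Ces2 cluster the letters lay on the reverse strand, shown in capitals as ACTTTG, at 70, 80, 92 and 117 bases before the start that the window of Ces2a, Ces2e, Ces2f and Ces2g uses:

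Ces2a: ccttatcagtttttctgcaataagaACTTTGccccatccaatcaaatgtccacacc

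Ces2e: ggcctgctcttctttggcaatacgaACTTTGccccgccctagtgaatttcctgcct

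Ces2f: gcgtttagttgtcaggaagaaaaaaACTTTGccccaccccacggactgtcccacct

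Ces2g: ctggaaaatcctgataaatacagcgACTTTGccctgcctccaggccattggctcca

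All 4 stretches are read on the plus strand, from chr8:104733908-104733963, chr8:104926155-104926210, chr8:104947239-104947294 and chr8:104961576-104961631. For Ces2g that start lies 122 bases inside the gene's full interval, so the letters fall within it, and for Ces2f 1 base inside. The letters were thus shared by Ces2e, Ces2f and Ces2g, which rose, and by Ces2a, which was not called (values below). They were absent from the window of Ces2h, which also rose. For the aryl hydrocarbon receptor, the core GCGTG was in 20 of 122 member windows (16.4%) and in 32.4% of all windows. It lay 54 bases before the start used for Cyp1a1, which lies 9685 bases inside the gene's full interval (chr9:57697534-57697588, plus strand) and, on the reverse strand, 76 bases before that of Cyp1b1 (chr17:79715108-79715162, minus strand), where the capitals mark it. These 2 classical targets of the receptor are compared below:

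Cyp1a1: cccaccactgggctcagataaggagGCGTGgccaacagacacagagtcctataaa

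Cyp1b1: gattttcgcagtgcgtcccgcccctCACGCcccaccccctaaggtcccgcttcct

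A match is only a run of letters in a window, not a measured binding site. The Ugt1a genes lie in 1 locus (chromosome 1, 88055411 to 88220002), where each gene has its own first exon or pair of exons, and all 8 join the same following exons from position 88215044. The last 15 bases of the own part, in lower case, and the first 15 of the shared part, in capitals, show this for 3 of them in GENCODE M21 transcripts on GRCm38:

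Ugt1a1: aagcccctatcccagGAATTTGAAGCCTAT

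Ugt1a6a: ggaaagctgactcagGAATTTGAAGCCTAT

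Ugt1a7c: aagccactttccaagGAATTTGAAGCCTAT

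Summed over each family, transcripts of all 4 families were more abundant with doxycycline in every library. The Cyp genes summed to 1974 ± 645 CPM in controls and 3927 ± 44 CPM with doxycycline (SD, n = 3 per group). The Ugt genes, with the reads of the Ugt1a locus counted once, came to 4039 ± 665 CPM in controls and 7195 ± 223 CPM with doxycycline (SD, n = 3 per group). Sult genes gave 309 ± 36.4 CPM in controls and 740.3 ± 21.1 CPM with doxycycline (SD, n = 3 per group), and Ces genes gave 271 ± 58.4 CPM in controls and 432 ± 7.88 CPM with doxycycline (SD, n = 3 per group). The 133 genes together held 6593 ± 209 CPM in controls and 12290 ± 169 CPM with doxycycline (SD, n = 3 per group), a ratio of 1.86. No test was made on these sums, and they do not show a rise of every gene, for which calls are given below. Ugt2b34 alone made up a mean of 38.5% of the Ugt sum in controls and 56.2% with doxycycline. Cyp3a13 and Cyp2s1 made up 4.63% and 11.7% of the Cyp sum in controls, and 20.1% and 23.7% with doxycycline. With total counts as the scaling, the ratio of doxycycline to control means was 1.46 for Cyp, 1.31 for Ugt, 1.76 for Sult and 1.18 for Ces. The libraries of the groups overlapped in none of the 4 families, and with total counts as the scaling in Ces alone (268.0 to 392.9 CPM in controls, 358.2 to 378.4 CPM with doxycycline). Control replicate 3 was the highest control library in 3 families and the lowest for Ugt.

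**Figure D1:**
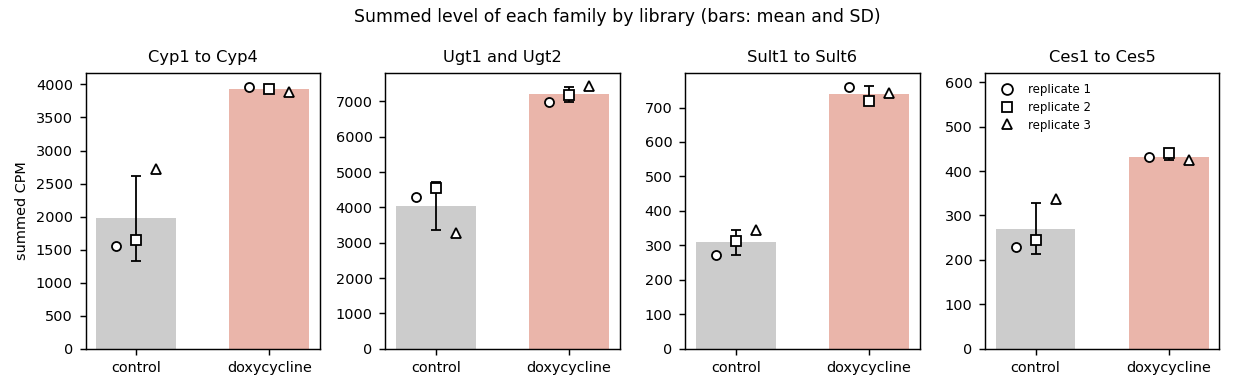
Summed CPM of each enzyme family in each library. Bars are the mean of 3 libraries with the SD, symbols are replicates, and the axes differ between panels. All 3 doxycycline libraries lie above all 3 control libraries in each family, and control replicate 3 (triangle) is the highest control for Cyp, Sult and Ces and the lowest for Ugt.

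By gene, edgeR's quasi-likelihood test (Benjamini-Hochberg over all 12909 genes tested, adjusted p under 0.05) called 29 of the 62 tested members (46.8%), near the 45.3% of all genes called. Of these, 23 were higher with doxycycline, where 21.7% of all genes were higher, and 6 were lower, where 23.6% were. The median log2 fold change was 0.32 over the members and -0.08 over all genes tested. Control and doxycycline libraries did not overlap in CPM for 41 of the 64 reported members, and for 61.3% of all genes tested. Without control replicate 3, 39 members were higher and 10 lower, against 34.9% and 35.1% of all genes. The 39 include Ugt2b1, which was tested in that fit but not with all libraries. With total counts as the only scaling, which moved the median of all genes to -0.52, 19 members were higher and 14 lower, and 1747 of all genes were higher and 5131 lower. An uncalled value just above 0, such as that of Cyp2j6 (0.36), was negative on that scale (-0.09). The minimum favours a low-count member that is high in 1 group, as with 5 of the members called higher (Ces2h, Cyp1b1, Cyp2a12, Cyp2r1 and Sult4a1) and 1 called lower (Cyp2e1). Of the 54 with 10 or more counts in every library, 18 rose and 5 fell. By family, all 6 Sult genes tested rose, 5 of them also with total counts. Among 32 Cyp genes, 11 rose and 6 fell (16 and 7 without control replicate 3, 9 and 9 with total counts). Of 11 Ces genes 4 rose and none fell, but 5 were higher and 3 lower without control replicate 3, and 4 higher and 4 lower with total counts. Of 13 Ugt genes 2 rose and none fell. Without control replicate 3, 12 Ugt genes were higher, with Ugt2b1 added to those tested, and none lower. With total counts 1 was higher and 1 lower. The Ugt counts include the 8 overlapping Ugt1a rows described below.

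**Figure D2:**
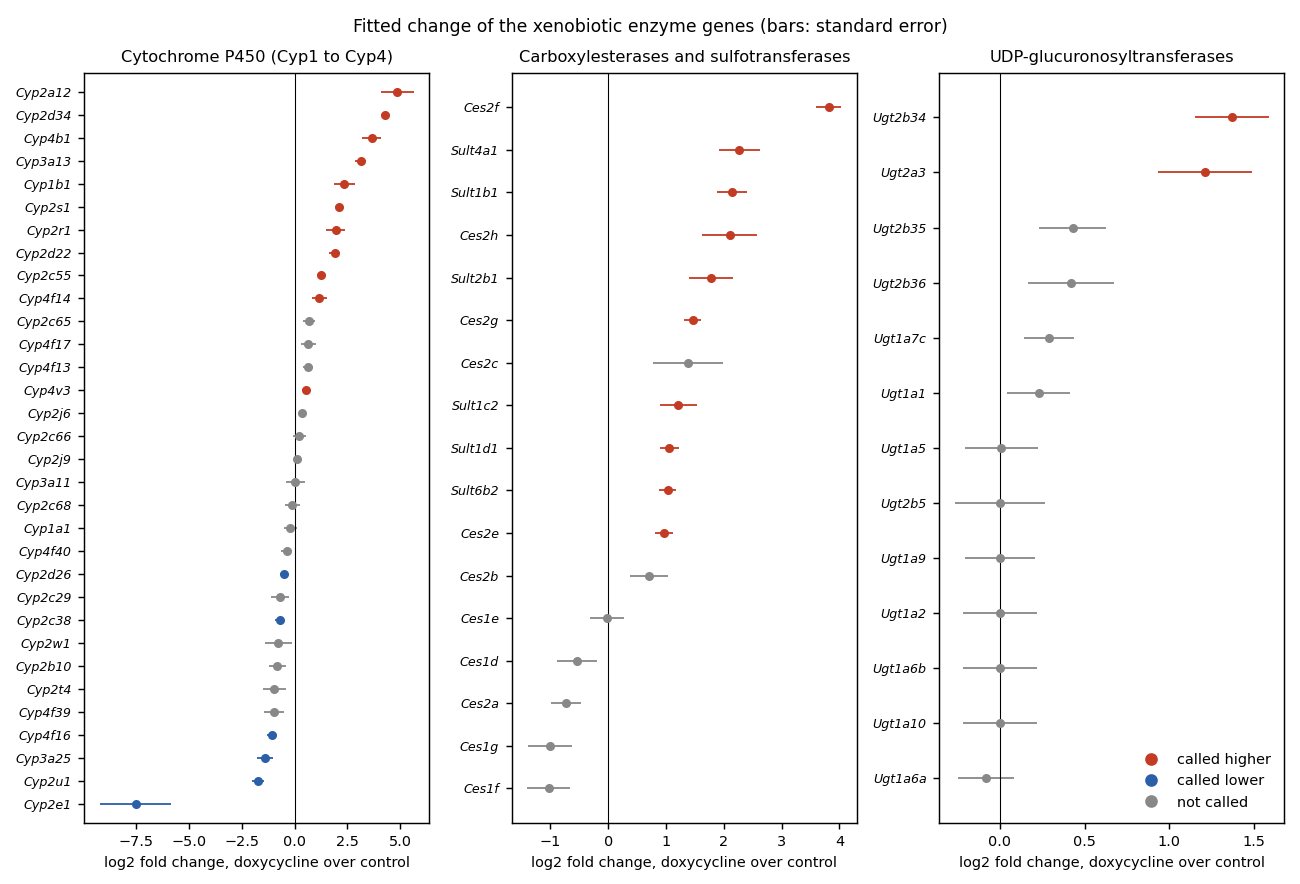
Fitted log2 fold change (doxycycline over control) of the 62 tested members with its standard error, by family; red marks members called higher, blue called lower, grey not called, and scales differ between panels. Calls lie on both sides for Cyp, while every Sult gene lies above 0 and the called Ces genes are all of Ces2; the value of Cyp2e1, with no count in the doxycycline group, has no fixed size.

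Among the P450s, Cyp3a13 (Entrez 13113, chromosome 5, 137892933 to 137925610), a CYP3A enzyme that oxidises drugs and steroids, took a larger place in its family with doxycycline. It had 76.4, 74.9 and 121 CPM in controls against 835, 786 and 752 CPM with doxycycline. Every doxycycline library was at least 6 times above the highest control, and the gene rose by 3.12 on the log2 scale (SE 0.242, edgeR adjusted p = 0.000176). Its share of all Cyp counts went from 4.63% ± 0.233 to 20.1% ± 0.845 (SD, n = 3 per group). Of the other CYP3A genes, Cyp3a11, the enzyme classically induced through the pregnane X receptor, had control levels of 31.4, 36.6 and 101 CPM and doxycycline levels of 64.2, 49.8 and 57.9 CPM. These overlapped, and the difference was 0.03 on the log2 scale (SE 0.443, edgeR adjusted p = 0.966); without control replicate 3 it was 0.77 (edgeR adjusted p = 1.03e-05). Cyp3a25 went the other way, with 21.8, 25.1 and 53.4 CPM in controls against 14.97, 10.1 and 12.9 CPM with doxycycline. It fell by 1.40 on the log2 scale (SE 0.376, edgeR adjusted p = 0.0214), but the call was lost without any 1 of the doxycycline libraries (adjusted p up to 0.0882) and the value was -0.88 without control replicate 3, and 26.8% of the 50-base stretches of its transcript also occur in other genes. No such stretch of Cyp3a13 does, and it lies 7.9 Mb from Cyp3a11 and 8.1 Mb from Cyp3a25 on the chromosome.

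Cyp2s1 (Entrez 74134, chromosome 7, 25802469 to 25816525), an epithelial P450 that acts on retinoids, was the most abundant reported P450 per length with doxycycline (338 CPM per kilobase of transcript, 80.0 in controls). It had control levels of 217, 202 and 239 CPM and doxycycline levels of 871, 966 and 949 CPM. The groups were far apart and the replicates close, and Cyp2s1 rose by 2.08 on the log2 scale (SE 0.157, edgeR adjusted p = 0.000147). Cyp4b1 (Entrez 13120, chromosome 4, 115624698 to 115647721), which hydroxylates fatty acids and activates plant furans, had 5.85, 7.08 and 18.7 CPM in controls against 129, 128 and 137 CPM with doxycycline. Control replicate 3 was the highest control but far below all induced libraries. Cyp4b1 rose by 3.65 on the log2 scale (SE 0.459, edgeR adjusted p = 0.00104), and by 4.37 without control replicate 3. Cyp2d34 (Entrez 223706, chromosome 15, 82615963 to 82620956) had control levels of 1.34, 1.16 and 1.11 CPM and doxycycline levels of 24.8, 26.3 and 20.9 CPM. It was near 1 CPM in every control library and rose by 4.30 on the log2 scale (SE 0.231, edgeR adjusted p = 5.59e-05). Its relative Cyp2d22 had 2.69, 2.69 and 2.82 CPM in controls against 7.08, 10.8 and 12.5 CPM with doxycycline and rose by 1.89 on the log2 scale (SE 0.282, edgeR adjusted p = 0.00194). Cyp2d26, of the same cluster, had control levels of 56.4, 49.96 and 45.6 CPM and doxycycline levels of 30.9, 36.8 and 38.7 CPM. It fell by 0.51 on the log2 scale (SE 0.168, edgeR adjusted p = 0.0414), a call that was lost without any 1 library other than control replicate 3 (adjusted p up to 0.154).

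Cyp1a1 and Cyp1b1, whose promoter letters are printed above, gave different results. Cyp1b1, which oxidises polycyclic aromatic compounds and oestrogens, had 0.702, 2.39 and 0.604 CPM in controls against 6.07, 6.38 and 6.64 CPM with doxycycline and rose by 2.36 on the log2 scale (SE 0.514, edgeR adjusted p = 0.00968), or by 3.25 without control replicate 2. Cyp1a1, the standard readout of aryl hydrocarbon receptor activity, had control levels of 8.83, 12.6 and 6.24 CPM and doxycycline levels of 7.28, 9.81 and 6.996 CPM. Its groups overlapped and the difference was -0.20 on the log2 scale (SE 0.308, edgeR adjusted p = 0.624). The other Cyp1a gene, Cyp1a2, had no count.

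The Cyp2c genes, many of which epoxidise or hydroxylate arachidonic acid, were the largest P450 group and mostly uncalled. Cyp2c55, which makes a hydroxylated arachidonic acid, had 78.8, 79.4 and 117 CPM in controls against 231, 232 and 201 CPM with doxycycline and rose by 1.27 on the log2 scale (SE 0.208, edgeR adjusted p = 0.00303). The abundant Cyp2c65 had control levels of 189, 222 and 390.0 CPM and doxycycline levels of 458, 413 and 404 CPM. Control replicate 3 lay well above the other controls, next to the induced libraries, and the difference was 0.67 on the log2 scale (SE 0.285, edgeR adjusted p = 0.0944); without that library it was 1.06 (edgeR adjusted p = 1.22e-09). Cyp2c66 behaved in the same manner, with 136, 162 and 308 CPM in controls against 248, 225 and 235 CPM with doxycycline and a difference of 0.22 on the log2 scale (SE 0.311, edgeR adjusted p = 0.59) that became 0.68 (edgeR adjusted p = 8.14e-07) without it. Both share over 20% of their 50-base stretches with other genes (20.6% and 24.0%). Cyp2c29 had control levels of 98.9, 142 and 311 CPM and doxycycline levels of 136, 103 and 102 CPM and was not called (-0.69 on the log2 scale, SE 0.415, edgeR adjusted p = 0.214; -0.07 without control replicate 3). Cyp2c38, at 8.30, 8.08 and 8.25 CPM in controls against 4.35, 6.01 and 4.81 CPM with doxycycline, fell by 0.70 on the log2 scale (SE 0.223, edgeR adjusted p = 0.0383). That call was lost without any 1 library other than control replicate 3 (adjusted p up to 0.139), and the gene's interval overlaps that of Cyp2c39, which had 0 counts. Cyp2b10, the classical target of the constitutive androstane receptor, had control levels of 82.5, 95.5 and 244 CPM and doxycycline levels of 81.3, 78 and 78.8 CPM. The 3 induced libraries and the first 2 controls lay close together, control replicate 3 was well above them, and the difference was -0.82 on the log2 scale (SE 0.410, edgeR adjusted p = 0.142). Without that library it was -0.15 (edgeR adjusted p = 0.136), and with total counts the gene was called lower (-1.27, edgeR adjusted p = 0.0363). Cyp2j6, an epoxygenase of the small intestine, had 268, 254 and 275 CPM in controls against 319, 344 and 357 CPM with doxycycline. The induced libraries were all above the controls, but by little (0.36 on the log2 scale, SE 0.144, edgeR adjusted p = 0.0799; 0.40 without control replicate 3, edgeR adjusted p = 0.000104).

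In the Cyp4f genes, whose products hydroxylate leukotrienes and fatty acids at the far end of the chain, calls also went both ways. Cyp4f14, which inactivates leukotriene B4, had control levels of 105, 104 and 236 CPM and doxycycline levels of 344, 330.4 and 323 CPM. All induced libraries were higher and it rose by 1.17 on the log2 scale (SE 0.341, edgeR adjusted p = 0.0292), a call lost without any 1 library except control replicate 3 (adjusted p up to 0.0856), and lost with total counts. Cyp4f16 had 50.9, 54.04 and 89.9 CPM in controls against 31.4, 31.5 and 30.5 CPM with doxycycline and fell by 1.06 on the log2 scale (SE 0.245, edgeR adjusted p = 0.0121), which was lost without any 1 doxycycline library (adjusted p up to 0.0565); 26.5% of its stretches recur in other genes. The other 4 tested Cyp4f genes were not called, with log2 fold changes from -0.97 to 0.65. Without control replicate 3, Cyp4f13 was higher (0.61, edgeR adjusted p = 0.00772), and the values of Cyp4f14 and Cyp4f16 were 1.69 and -0.74. With total counts Cyp4f39 and Cyp4f40 were lower (edgeR adjusted p = 0.0328 and 0.0303). Cyp4v3, a fatty acid hydroxylase of the same family, had control levels of 44.9, 38.4 and 45.7 CPM and doxycycline levels of 55.8, 61.6 and 67.2 CPM and rose by 0.52 on the log2 scale (SE 0.158, edgeR adjusted p = 0.0327), which did not hold without any 1 library other than control replicate 3 (adjusted p up to 0.133), or with total counts.

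A further pair of P450s passed the test upward at low counts. Cyp2r1, the vitamin D 25-hydroxylase, had 0.819, 1.39 and 0.805 CPM in controls against 2.33, 5.92 and 3.46 CPM with doxycycline and rose by 1.95 on the log2 scale (SE 0.458, edgeR adjusted p = 0.0128). Cyp2a12, a steroid and bile acid hydroxylase, had only 2 control counts, both in replicate 1, and 60 counts with doxycycline. The scaled ratio was 34.5 (95% exact interval 9.13 to 291, counting error only), and without that control library the gene was at least 13.2-fold higher; 27.5% of its stretches recur in other genes. Downward, Cyp2u1, a fatty acid hydroxylase, had control levels of 14.7, 11.01 and 13.1 CPM and doxycycline levels of 5.26, 2.87 and 3.60 CPM and fell by 1.73 on the log2 scale (SE 0.286, edgeR adjusted p = 0.0031). Cyp2e1, the ethanol-oxidising P450, had 65 control counts and 0 in the doxycycline group, and was at least 18.9-fold lower against a floor of 3 counts over that group. Control replicate 3 had 3.93 CPM and the others 0.819 and 0.924, and without it the bound was 10-fold. Of the 6 P450 genes called lower, Cyp2e1 and Cyp2u1 alone kept the call under all the planned settings, against 9 of the 11 called higher. Among those kept, Cyp2e1, Cyp1b1, Cyp2a12 and Cyp2r1 had under 10 counts in some library, and the minimum favours such genes when high in 1 group.

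**Figure D3:**
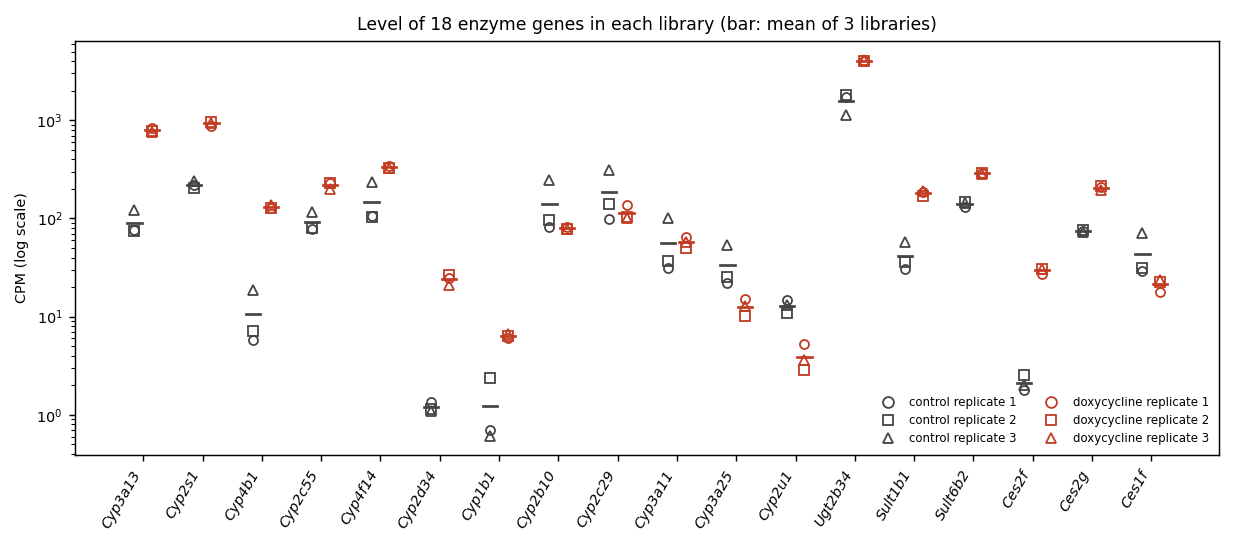
CPM (log axis) of 18 members in each of the 6 libraries, with the mean of each group as a bar. The 3 doxycycline libraries (red) lie close together for nearly every gene, while control replicate 3 (grey triangle) lies above the other controls for Cyp2b10, Cyp2c29, Cyp3a11 and Ces1f and below them for Ugt2b34.

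The Ces1 and Ces2 carboxylesterases gave different counts, a difference that was not itself tested. Ces2 enzymes hydrolyse esters with a large alcohol group, such as the prodrug irinotecan, and Ces1 enzymes esters with a large acyl group. The Ces2 genes summed to 194 ± 22.2 CPM in controls and 389 ± 8.43 CPM with doxycycline (SD, n = 3 per group), and the Ces1 genes to 75.5 ± 35.7 CPM in controls and 42.95 ± 3.84 CPM with doxycycline (SD, n = 3 per group). Of 7 Ces2 genes tested 4 rose and none fell (median log2 fold change 1.38), and of 4 Ces1 genes none was called (median -0.78). Over all genes tested, 21.7% were higher and 23.6% lower (median -0.08). Without control replicate 3 the counts were 5 higher and 1 lower for Ces2, and none higher and 2 lower for Ces1. In that fit 34.9% of all genes were higher and 35.1% lower. With total counts they were 4 and 1 for Ces2, and none and 3 for Ces1, with 1747 of all genes higher and 5131 lower. Without control replicate 3 the calls added for Ces2 were Ces2c, higher, and Ces2a, lower, and with total counts Ces2a alone, lower. For Ces1 they were Ces1f and Ces1g in both settings, and Ces1d with total counts only. Both clusters lie on chromosome 8, in intervals of 286 and 360 kb.

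Along the Ces2 cluster the values differed from gene to gene. Ces2a, the first in order, had 47.9, 46.1 and 85.7 CPM in controls against 35.4, 35.4 and 37.1 CPM with doxycycline. The induced libraries were all below the controls, yet the difference was -0.73 on the log2 scale (SE 0.264, edgeR adjusted p = 0.0582), and without control replicate 3 it was -0.37 (edgeR adjusted p = 0.00311). Ces2b had control levels of 1.345, 1.85 and 1.61 CPM and doxycycline levels of 2.02, 2.50 and 3.25 CPM. These did not overlap, but it was not called (0.71 on the log2 scale, SE 0.326, edgeR adjusted p = 0.117). Ces2c had control levels of 10.2, 8.54 and 1.31 CPM and doxycycline levels of 18.6, 18.04 and 16.6 CPM. Control replicate 3 was again the odd library, here low; the difference was 1.38 on the log2 scale (SE 0.600, edgeR adjusted p = 0.101), and 0.92 without it (edgeR adjusted p = 6.12e-05), with 42.2% of its stretches shared with other genes. Ces2e had 43.05, 48.1 and 55.2 CPM in controls against 95.9, 93.8 and 96.04 CPM with doxycycline and rose by 0.97 on the log2 scale (SE 0.155, edgeR adjusted p = 0.00258). Ces2f (Entrez 71903, chromosome 8, 104947355 to 104961130) had control levels of 1.81, 2.54 and 2.01 CPM and doxycycline levels of 27.5, 30.8 and 30.9 CPM. It was near 2 CPM in all controls and rose by 3.81 on the log2 scale (SE 0.220, edgeR adjusted p = 7.01e-05), the largest rise of the family. Its direct neighbour Ces2g was already more abundant in controls, also per length, with 74.3, 76.4 and 73.6 CPM in controls against 210.0, 213 and 194 CPM with doxycycline, and rose by 1.46 on the log2 scale (SE 0.143, edgeR adjusted p = 0.000364). Ces2h, at the end of the cluster, had control levels of 0.234, 0.616 and 0.403 CPM and doxycycline levels of 1.82, 2.22 and 1.34 CPM. It rose by 2.10 on the log2 scale (SE 0.472, edgeR adjusted p = 0.0104), but had under 10 counts in every control library. It met the minimum through the doxycycline group. The 4 promoter stretches printed above belong to genes with log2 fold changes of -0.73 (Ces2a), 0.97 (Ces2e), 3.81 (Ces2f) and 1.46 (Ces2g). Within the Ces family, Ces2g held 28.5% ± 5.79 of the counts in controls and 47.5% ± 1.69 with doxycycline, and Ces2a 21.7% ± 3.35 and 8.33% ± 0.355 (SD, n = 3 per group).

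Of the Ces1 genes, Ces1f, the most abundant, had 29.5, 31.02 and 70.5 CPM in controls against 17.7, 22.6 and 23.6 CPM with doxycycline. The groups did not overlap and the difference was -1.03 on the log2 scale (SE 0.366, edgeR adjusted p = 0.056); without control replicate 3 it was -0.48 (edgeR adjusted p = 0.00351). Ces1d, a triglyceride hydrolase, had control levels of 3.98, 6.47 and 8.86 CPM and doxycycline levels of 3.44, 4.81 and 4.88 CPM and was not called (-0.54 on the log2 scale, SE 0.348, edgeR adjusted p = 0.244; -0.21 without control replicate 3). Ces1g and Ces1e were not called either, with log2 fold changes of -1.01 and -0.02; Ces1g was lower without control replicate 3 (-0.70, edgeR adjusted p = 0.0366).

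All 6 sulfotransferases tested rose, where 21.7% of all genes tested were higher. In 5 of them every library had 10 or more counts, while Sult4a1 had that many in 1 control library and met the minimum through the doxycycline group. Sult1b1, which sulfates phenols and thyroid hormones, had 30.8, 35.6 and 57.3 CPM in controls against 185, 170.3 and 191 CPM with doxycycline and rose by 2.14 on the log2 scale (SE 0.259, edgeR adjusted p = 0.000897). Sult6b2, the most abundant Sult row, had control levels of 132, 146 and 145 CPM and doxycycline levels of 290.1, 289 and 285 CPM. Replicates were close in both groups and it rose by 1.03 on the log2 scale (SE 0.143, edgeR adjusted p = 0.00145). Sult1d1, which acts on catecholamines and other phenols, had 98.7, 118 and 120.4 CPM in controls against 247, 225 and 230.3 CPM with doxycycline and rose by 1.06 on the log2 scale (SE 0.157, edgeR adjusted p = 0.00187). Sult2b1, the cholesterol sulfotransferase, had control levels of 1.99, 2.001 and 4.73 CPM and doxycycline levels of 10.3, 9.35 and 9.82 CPM and rose by 1.78 on the log2 scale (SE 0.379, edgeR adjusted p = 0.00873). Sult1c2 had 6.84, 7.77 and 14.9 CPM in controls against 22.9, 20.9 and 24.2 CPM with doxycycline and rose by 1.21 on the log2 scale (SE 0.318, edgeR adjusted p = 0.0194), a call lost without any 1 library other than control replicate 3 (adjusted p up to 0.0696) and with total counts. Sult4a1, an orphan member known from neurons, had control levels of 0.585, 0.616 and 0.604 CPM and doxycycline levels of 3.84, 2.59 and 2.40 CPM and rose by 2.27 on the log2 scale (SE 0.356, edgeR adjusted p = 0.00238). In all 6 genes every induced library was above every control library, and the groups did not overlap for 61.3% of all genes tested. The other 15 Sult genes were below the minimum, among them all 8 Sult2a genes, which sulfate hydroxysteroids and had no count, and the phenol sulfotransferase Sult1a1, at no more than 1.05 CPM.

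Among the UGTs, Ugt2b34 (Entrez 100727, chromosome 5, 86889770 to 86906937) led. It had 1737, 1827 and 1139 CPM in controls against 4003, 3974 and 4152 CPM with doxycycline. Control replicate 3 was the lowest, the induced libraries lay far above every control, and Ugt2b34 rose by 1.37 on the log2 scale (SE 0.216, edgeR adjusted p = 0.00262). Per kilobase of transcript it had a mean of 514 CPM in controls and 1330 with doxycycline, and the next highest member outside the Ugt1a locus with doxycycline was Cyp2s1 (values above). Ugt2a3 had control levels of 31.8, 36.3 and 17.5 CPM and doxycycline levels of 58.9, 66.1 and 72.8 CPM and rose by 1.21 on the log2 scale (SE 0.279, edgeR adjusted p = 0.0122), a call lost without doxycycline replicate 3 (adjusted p = 0.0509) and with total counts. The remaining Ugt2b genes tested were not called. Ugt2b35 had 354, 385 and 249.8 CPM in controls against 423, 444 and 463 CPM with doxycycline (0.43 on the log2 scale, SE 0.198, edgeR adjusted p = 0.119; 0.28 without control replicate 3, edgeR adjusted p = 0.00227), Ugt2b36 ranged from 50.1 to 114 CPM over the 6 libraries, and Ugt2b5 had control levels of 58.2, 65.4 and 109 CPM and doxycycline levels of 88.5, 72.9 and 71.4 CPM (log2 fold change 0.00). Without control replicate 3 the value for Ugt2b5 was 0.34 (edgeR adjusted p = 0.00665), and 41.7% of its stretches recur in other genes.

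The 8 Ugt1a rows cannot be read gene by gene as deposited. Ugt1a2, Ugt1a5, Ugt1a6b and Ugt1a10 had counts within 0.27 to 0.70% of each other in every library, and the 8 rows summed to 4.27 to 7.36 times the reads the locus can hold if shared reads are counted once. Only 28.3 to 42.9% of each transcript comes from its own exons. Those exons are not all unique, since every 50-base stretch of the Ugt1a6a transcript (100.0%) and 80.7% of those of Ugt1a6b recur in other genes. As deposited, none of the 8 rows was called, and 7 of 8 were higher without control replicate 3. For a reading by gene, chosen after the near-equal rows were seen, the lowest row of a library was taken as the shared count and subtracted from each row to give own counts. The shared count is then an upper limit, and the own counts lower limits of the reads counted in own exons.

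Own counts made up 52.6, 51.1 and 9.21% of the locus in the control libraries and 48.3, 53.2 and 52.9% with doxycycline. Control replicate 3 was thus the only library with few reads in the own exons, which lie at the 5′ end of these transcripts; the part of RNA quality in this was not tested. Ugt1a7c, the leading own exon, had 620.9, 646.4 and 59.4 CPM in controls and 712, 847 and 861 CPM with doxycycline. Ugt1a1, the only bilirubin-conjugating UGT, had 140.4, 122.4 and 12.2 CPM in controls and 268.9, 323 and 336 CPM with doxycycline. Ugt1a6a, a phenol-conjugating UGT, had 264.5, 283 and 53.5 CPM in controls and 111, 141 and 117 CPM with doxycycline. These reads may not be those of Ugt1a6a alone, as all its 50-base stretches recur in other genes. Ugt1a1 lay higher in all induced libraries than in any control. Ugt1a6a lay lower than in the first 2 controls but above control replicate 3, so its groups overlapped.

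With all 6 libraries no own or shared row was called by edgeR. The log2 fold change was 1.75 for Ugt1a1 (SE 0.748, edgeR adjusted p = 0.0966), -0.70 for Ugt1a6a (SE 0.552, edgeR adjusted p = 0.335), 0.87 for Ugt1a7c (SE 0.737, edgeR adjusted p = 0.372) and 0.01 for the shared exons (SE 0.217, edgeR adjusted p = 0.986). Without control replicate 3, Ugt1a1 was higher by 1.25 on the log2 scale (edgeR adjusted p = 3.31e-09) and Ugt1a7c by 0.36 (edgeR adjusted p = 0.000501). In that fit Ugt1a6a fell by 1.14 (edgeR adjusted p = 3.26e-09) and Ugt1a9 fell by 0.57 (edgeR adjusted p = 0.00454). The share of own counts, which compares exons within a library, separated the groups in all libraries. Ugt1a1 took 13.2, 11.2 and 7.70% in controls and 24.0, 24.1 and 24.9% with doxycycline, and Ugt1a6a 24.8, 26.0 and 33.8% and then 9.95, 10.5 and 8.68%. In control replicate 3 the share of Ugt1a1 was close to those of Ugt1a2 (7.07%), Ugt1a6b and Ugt1a10 (6.87% each). Those 3 rows held 0.154 to 0.389% in the other libraries. The share of Ugt1a1 in control replicate 3 is therefore uncertain, as it depends on the row subtracted. The direction of these shares did not depend on control replicate 3, and the difference in shares was not tested.

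**Figure D4:**
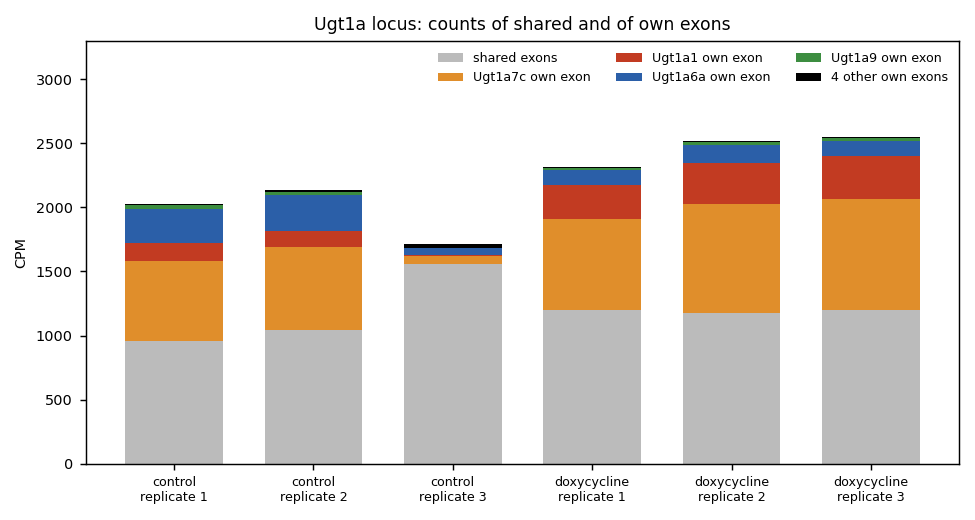
CPM of the Ugt1a locus in each library, split into the shared exons (grey) and the own first exons of each gene. Control replicate 3 has 9.21% of the locus in own exons, and in the other libraries the Ugt1a1 band is wider and the Ugt1a6a band narrower with doxycycline than in controls.

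The related genes were read from lists of regulators, supply genes and transporters. Of 14 xenobiotic sensors and their partners, all tested, 8 rose and none fell (median log2 fold change 0.88). Of all genes tested, 21.7% were higher and 23.6% lower (median -0.08). In the sensor list 3 rose with total counts and 12 without control replicate 3. The pregnane X and constitutive androstane receptors were not among the 8. Nr1i2 had 62.4, 66.6 and 73.7 CPM in controls against 77.3, 81.5 and 79.4 CPM with doxycycline (0.23 on the log2 scale, SE 0.143, edgeR adjusted p = 0.222), and Nr1i3 had control levels of 91.7, 94.99 and 112 CPM and doxycycline levels of 107, 122 and 98.5 CPM (0.13 on the log2 scale, SE 0.165, edgeR adjusted p = 0.548). Both differences were under 0.25 on the log2 scale, and without control replicate 3 they were 0.31 (edgeR adjusted p = 0.00337) and 0.24 (edgeR adjusted p = 0.0283). Ahr had 66.1, 67.8 and 34.1 CPM in controls against 103, 118 and 121 CPM with doxycycline and rose by 1.02 on the log2 scale (SE 0.276, edgeR adjusted p = 0.0216), which was lost without any 1 doxycycline library (adjusted p up to 0.0752). Its repressor Ahrr, a target of the receptor, rose by 1.79 on the log2 scale (SE 0.336, edgeR adjusted p = 0.00495), and its partner Arnt and its target Tiparp rose by 0.65 and 0.85, calls lost without control replicate 2 or any 1 doxycycline library (adjusted p up to 0.113 and 0.146). Nfe2l2, the regulator of the antioxidant response, had control levels of 403, 435 and 353 CPM and doxycycline levels of 1077, 1064 and 1110 CPM and rose by 1.45 on the log2 scale (SE 0.157, edgeR adjusted p = 0.000528), while its inhibitor Keap1 was not called (0.04 on the log2 scale, SE 0.154, edgeR adjusted p = 0.869). Hnf4a, an intestinal and hepatic nuclear receptor that drives many of these enzymes, had 1691, 1753 and 1174 CPM in controls against 3305, 3654 and 3582 CPM with doxycycline and rose by 1.19 on the log2 scale (SE 0.201, edgeR adjusted p = 0.00331). Rxra, the shared partner of the nuclear receptors, rose by 0.77 and the bile acid receptor Nr1h4 by 1.10. Without doxycycline replicate 3 neither was called (adjusted p up to 0.0599 and 0.0511), nor was Rxra without doxycycline replicate 2. With total counts the calls of Ahr, Arnt, Tiparp, Rxra and Nr1h4 were lost. Ppara, Hnf4g and Nr3c1 were not called. In these 3 genes control replicate 3 was far below the other controls, for instance at 8.25 CPM for Hnf4g against 144 and 130.2. Without it Hnf4g and Nr3c1 were higher by 0.69 (edgeR adjusted p = 1.39e-06) and 0.48 (edgeR adjusted p = 0.00011).

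Of 12 genes for electron supply and cosubstrates 7 rose and 1 fell (median 0.84), against 21.7% higher and 23.6% lower of all genes tested. Without control replicate 3, 10 were higher and 1 lower, and with total counts 5 and 1 (median 0.40). The glucuronic acid route had several of the genes that rose. Ugp2 and Ugdh, which make UDP-glucose and oxidise it to UDP-glucuronic acid, rose by 1.21 (edgeR adjusted p = 0.00144) and 0.89 (edgeR adjusted p = 0.00568), though the call of Ugdh was lost with total counts (adjusted p = 0.0642). Slc35d1, which carries UDP-glucuronic acid into the endoplasmic reticulum where the UGTs work, had control levels of 136, 152 and 94.2 CPM and doxycycline levels of 679.6, 635 and 635 CPM and rose by 2.35 on the log2 scale (SE 0.217, edgeR adjusted p = 0.000319). On the sulfate side, the sulfate importer Slc26a2 rose by 1.76 on the log2 scale (SE 0.303, edgeR adjusted p = 0.00375), Papss2, which makes the active sulfate donor, rose by 0.78 (a call lost with total counts, adjusted p = 0.111) and Bpnt1, which clears its by-product, by 1.15, while Papss1 was not called. Slc35b2, which takes the donor into the Golgi, away from the cytosolic SULTs, fell by 0.65 on the log2 scale (SE 0.200, edgeR adjusted p = 0.0339), a call lost without control replicate 2 or any 1 doxycycline library (adjusted p up to 0.139). Por, the electron donor of all microsomal P450s, had 74.98, 78.4 and 168 CPM in controls against 172, 191 and 164 CPM with doxycycline. Control replicate 3 lay with the induced libraries and the difference was 0.71 on the log2 scale (SE 0.330, edgeR adjusted p = 0.12); without it the value was 1.21 (edgeR adjusted p = 2.9e-10). Cyb5b rose by 1.39. Cyb5a and Cyb5r3 were not called with all libraries, and were higher without control replicate 3 (0.42, edgeR adjusted p = 0.000172, and 0.70, edgeR adjusted p = 1.71e-08).

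**Figure D5:**
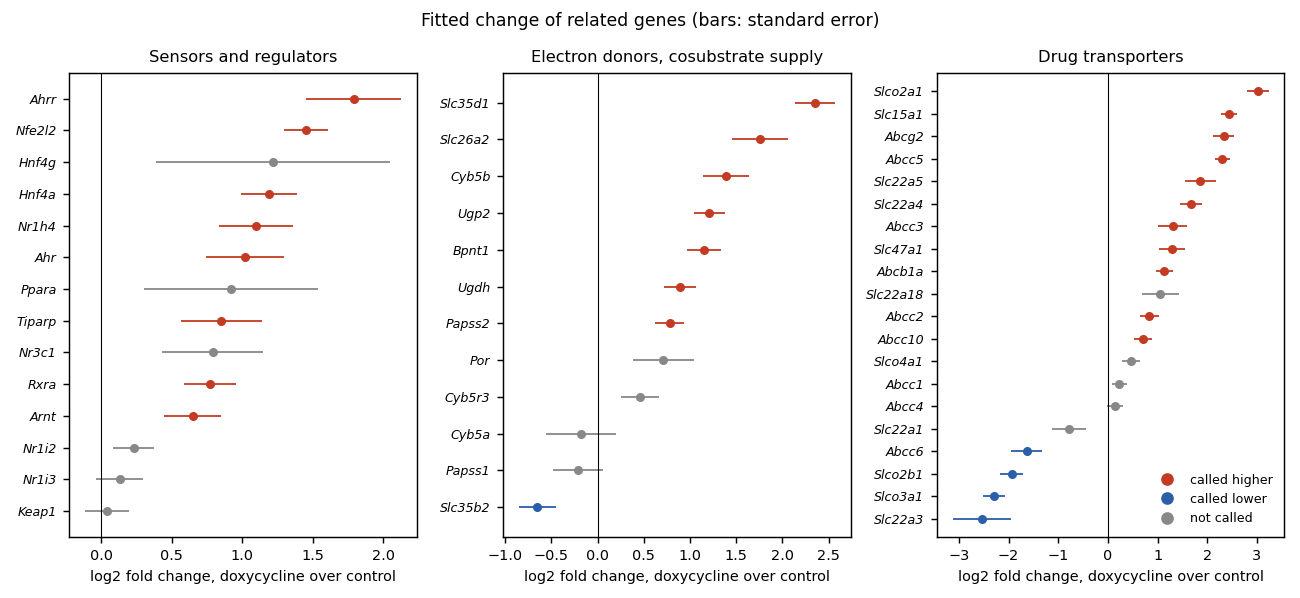
Fitted log2 fold change (doxycycline over control) with its standard error for the tested sensors, electron and cosubstrate supply genes, and drug transporters; red marks genes called higher, blue called lower and grey not called, and scales differ between panels. None of the sensors lies below 0, Nr1i2, Nr1i3 and Keap1 lie nearest to it, and the transporters have calls on both sides.

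Of 20 drug transporters tested 11 rose and 4 fell (median 0.94), with 13 higher and 5 lower without control replicate 3, and 9 and 5 with total counts. The efflux pumps Abcc5 and Abcg2 rose by 2.30 (edgeR adjusted p = 0.000101) and 2.33 (edgeR adjusted p = 0.000284), and the uptake carriers Slco2a1 and Slc15a1 by 3.02 (edgeR adjusted p = 0.000134) and 2.44 (edgeR adjusted p = 0.000101). Slc15a1, the dipeptide carrier, is also 1 of the 18 enterocyte markers. Of 34 other phase I genes 11 rose and 5 fell (median 0.55), with 25 higher and 5 lower without control replicate 3, and 7 and 5 with total counts. The monoamine oxidase gene Maoa rose by 1.84 (edgeR adjusted p = 0.000421) and the fatty aldehyde dehydrogenase Aldh3a2 by 1.30 (edgeR adjusted p = 0.000785), while the mitochondrial aldehyde dehydrogenase Aldh1b1 fell by 2.04 (edgeR adjusted p = 0.000261) and the monooxygenase Fmo1 fell by 3.46 (edgeR adjusted p = 0.000425). Of 22 other conjugating enzymes, chiefly glutathione transferases, 2 rose and 4 fell (median -0.30). Without control replicate 3 the balance turned, with 11 higher and 5 lower, and with total counts 1 was higher and 7 lower. Of all genes tested, 21.7% were higher and 23.6% lower with all libraries, and 34.9% and 35.1% without that one. The arylamine acetyltransferase Nat2 was among the 2 that rose (1.16, edgeR adjusted p = 0.0017). Of 6 tested P450s outside families 1 to 4, which mostly serve sterol, bile acid and vitamin metabolism, 2 rose (Cyp51 and Cyp8b1) and 2 fell (Cyp11a1 and Cyp39a1). Differences between these lists and the members were not tested.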

How the data were processed

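RNA-seq was done on 6 libraries of total RNA (TruSeq kit, NextSeq), per the labels' protocols. The authors deposited whole-number read counts per Entrez gene, and the submitters' processing notes name mm10. What aligned and counted the reads, with which annotation and strand setting, is not given in the sources used here. Counts of near-identical or overlapping genes are therefore uncertain. RefSeq's GRCm38.p6 gene table gave symbols and positions for 24570 of 24594 IDs. Rows without a symbol were kept.

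Counts were tested with edgeR 4.0.16 in R 4.3.3 (TMM, filter by group, robust quasi-likelihood test, 3 doxycycline against 3 control libraries, Benjamini-Hochberg over all 12909 genes, threshold 0.05). The script was tested on simulated data. "Rose" and "fell" refer to that threshold, and log2 changes come from the fit. Alternatives were RLE factors, total counts, no filter, a filter of 10 counts in 3 libraries, DESeq2 1.42.0, limma-voom (limma 3.58.1), a replicate block and each library left out. The splitting of the Ugt1a rows, with and without control replicate 3, was added after the data were seen. Shared transcript stretches were counted as 50-base windows of 1 protein-coding GENCODE M21 transcript per member (those with a RefSeq mRNA first, then the longest) that occur in another gene. Bounds use 3 counts and intervals are exact at 95%.

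Members and lists were chosen with earlier results of these data known. Full values went to the called members with the largest changes of each family (mean of at least 1 CPM, up to 5 each way), the 3 most abundant of each family, 27 fixed members, the sensors and supply genes, and up to 4 called genes of each other list. Every reported member may be named beside these, and ranges stand for some of them.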

Additional observations from a re-analysis of the deposited data

How the results depend on the processing

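Of the 23 members higher and the 6 lower, 19 and 2 kept the call in all planned settings. With total counts 14 members were lower, and 27 related genes higher instead of 41. Leaving out 1 library gave 3836 to 9286 calls over all genes, 19 to 39 members higher, 2 to 10 members lower, and 30 to 73 higher and 8 to 18 lower among the related genes. The highest values all came without control replicate 3. The members lower were 2 without any 1 doxycycline library. With that control library left out and the Ugt1a rows split, 9268 genes were called in all, with 35 members higher, 12 lower, and 73 related genes higher. The sign of 11 of the 62 tested members turned on leaving out some library, and that of 9 with total counts (fitted values of 0.00 not counted), all of them uncalled with all libraries. Of these, Ugt2b5 was called once turned (0.34 without control replicate 3, with a range of -0.17 to 0.34 on leaving out 1 library); the cause was not tested. Same-numbered libraries did not deviate together from their group means (correlations -0.299, 0.119 and -0.187). With 3 libraries per group, and control replicate 3 apart from the others, this cannot exclude that the numbers pair the libraries. A replicate block gave 4509 calls over all genes, 22 members higher and 4 lower, and 35 related genes higher and 10 lower. The 32 members with some counts but fewer than the minimum were too shallow to test.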
